A study of Mus musculus with 147 samples.

Results

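Microglia from mice on a high-fat diet were compared with microglia from mice on normal chow. The comparison held 8 libraries, 4 on high-fat diet (HFD) and 4 on normal diet (ND), of 37 in the diet experiment and 147 in the whole series. They were chosen by their labels alone: microglia of the diet experiment, 5000 sorted cells per library, without streptozotocin (STZ). HFD mice had eaten the high-fat diet for 8 weeks, and ND mice were given chow. A further group of 4 microglia libraries came from mice on HFD for 8 weeks that also received STZ, a toxin of the insulin-producing beta cells, at week 4; its values are given beside the others where they bear on a result. On each diet 2 libraries belonged to cohort 6 and 2 to cohort 8, so the design was balanced over cohorts. Strain, sex and age are not given in the labels used here. The labels do not say whether a library was 1 animal or a pool, so each p-value measures the spread between these libraries only. Values of single libraries are listed as HFD 1_2 and 1_3 (cohort 6), then 3_14 and 3_16 (cohort 8), against ND 1_5 and 1_6 (cohort 6), then 3_17 and 3_18 (cohort 8). Those of the STZ group follow the order 1_4 (cohort 6), 2_9 (cohort 7), 3_13 and 3_15 (cohort 8).

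Microglia are the resident macrophages of the brain parenchyma. They enter the embryonic brain early, renew themselves locally and keep their identity under TGF-beta signalling and the transcription factor Sall1. They prune synapses, clear debris and react to fatty acids, cytokines and hormones; in rodents a high-fat diet is known to activate microglia of the hypothalamus, while whole-brain sorts average over all regions. Cells stressed by heat, misfolded protein or handling induce chaperones of the HSP70, HSP90 and HSP40 families through the heat shock factor Hsf1, and handling of living microglia also induces immediate early genes such as Fos and Jun.

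The sorted cells carried the markers of microglia on both diets. Sall1 (chromosome 8, 89027235 to 89044162 of mm10, minus strand) had 360, 468, 523 and 473 counts scaled to library size (CPM, a count divided by the library's gene counts in M) in HFD libraries, against 562, 431, 612 and 612 CPM in ND libraries, while it had between 0 and 0.827 CPM in islet and 0 CPM in peritoneal macrophages of the diet experiment. The Sall1 levels of the diets overlapped, and the fitted log2 difference of -0.25 (SE 0.13) did not pass edgeR's quasi-likelihood test (adjusted p 1). P2ry12, a purinergic receptor that steers microglial processes, had 3006, 7005, 6786 and 5300 CPM on HFD, against 6783, 4249, 5612 and 5965 CPM on ND. Library HFD 1_2 was the lowest of all for Sall1 and P2ry12. Levels of Cx3cr1, the fractalkine receptor, were 6861 to 7645 CPM on HFD and 7230 to 8033 CPM on ND. Depth was 17.7 to 34.5 M counts per library on HFD, 18.9 to 33.5 M in the STZ group and 18.5 to 20.6 M on ND.

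Several libraries stood apart before any comparison was made. Among 6909 genes whose highest microglial level was 5 to 50 CPM, the 66 pairs of microglia libraries were correlated across genes on log2(CPM + 1), and the points share depth and cell type. Pairs outside the 2 closest had r of 0.44 to 0.81, with a median of 0.66. Library STZ 3_13 and library ND 1_5 had r = 0.92, and library STZ 1_4 and library ND 1_6 had r = 0.85, although they carry different diet labels. ND 1_5 was also close to other libraries: r was 0.81 with ND 3_18, 0.80 with HFD 3_16 and 0.79 with HFD 3_14 and HFD 1_3. Its lowest r was 0.59, with ND 3_17. Of 24 genes above 5 CPM in STZ 1_4 and below 0.3 CPM in the other microglia libraries, ND 1_6 set aside, 24 were above 0.5 CPM in ND 1_6, at a median 0.594 of their STZ 1_4 level. Between HFD 1_2 and HFD 1_3, which share diet and cohort, 3 of 12 such genes were found in both. The closest pair, STZ 3_13 and ND 1_5, had 1 such gene, also found in both, at a ratio of 0.485. STZ 1_4 and ND 1_6 are both of cohort 6. Their summed ependyma and choroid plexus genes were 1466 and 1143 CPM, against at most 318 CPM in the other microglia libraries. The part of that RNA in their likeness was not tested. Carry-over between libraries, a wrong label and, for ND 1_5, a likeness to most libraries cannot be told apart here. The 2 matching ND libraries are the cohort 6 controls, and values without them are given beside the results that moved most. Quality weights from limma, which fall where a library departs from the fit, were 0.288 for ND 3_17 and 0.402 for HFD 1_2, and 1.11 to 2.26 for the other 6 libraries. ND 3_17 also had the fewest genes with a count, 12437.

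**Figure D1:**
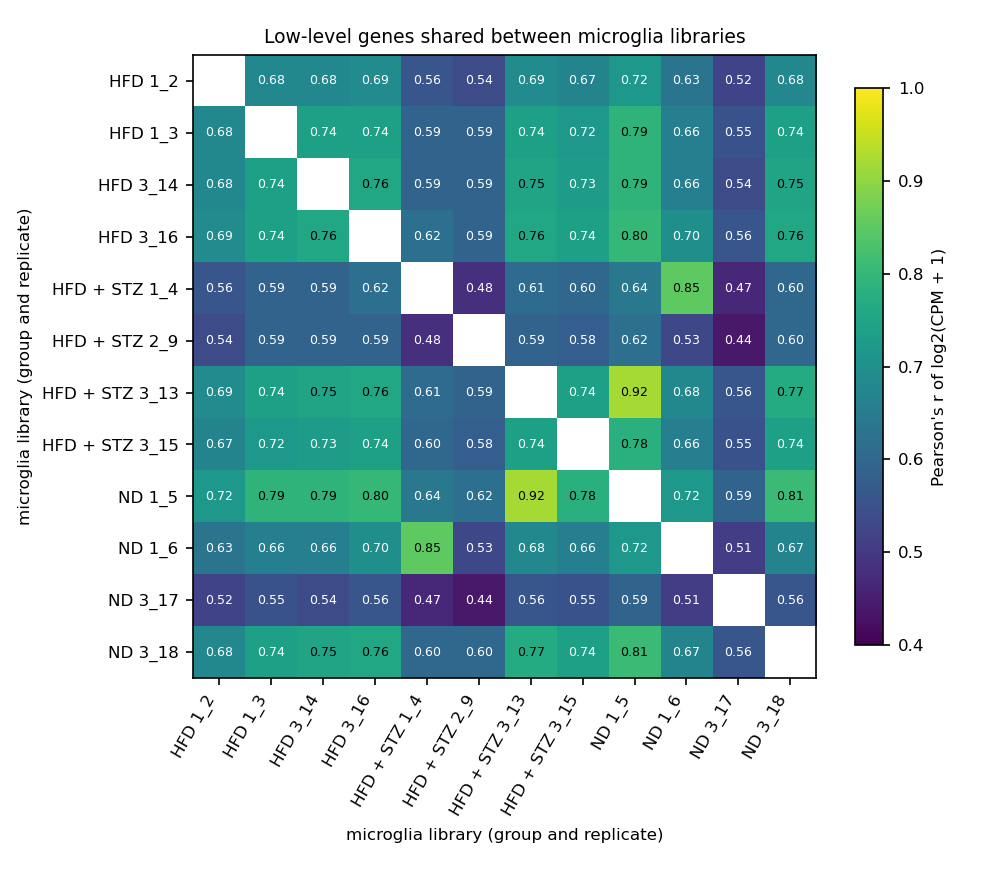
Correlation between microglia libraries over 6909 low-level genes. Rows and columns are the 12 microglia libraries (group and replicate), and colour and number give Pearson's r of log2(CPM + 1) across genes. The brightest cells off the diagonal are STZ 3_13 with ND 1_5 (0.92) and STZ 1_4 with ND 1_6 (0.85); ND 3_17 and STZ 2_9 have the lowest r with each other (0.44).

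A second split ran through the libraries for C1qc, Rac1, Lamp1 and Spi1. The lists these belong to did not follow as a whole: the lysosome list had a median log2 difference of 0.00 (24 higher, 23 lower) and the complement list -0.10 (6 higher, 8 lower). C1qc, a chain of the complement starter C1q (chromosome 4, 136889804 to 136893065, minus strand), had 1436, 1059, 821 and 4285 CPM on HFD, 5284, 1669, 4717 and 4313 CPM in the STZ group and 4407, 5250, 4195 and 3459 CPM on ND. HFD 1_2, 1_3 and 3_14 and STZ 2_9 were low, while HFD 3_16 stood at the level of the controls. The partner chain C1qa did not follow: its level was 3308 to 5583 CPM on HFD and 3724 to 4516 CPM on ND. The ratio of C1qc to C1qa was 0.257, 0.281, 0.248 and 1.01 on HFD, against 1.18, 1.16, 1.05 and 0.826 on ND. In peritoneal macrophages the same ratio spread from 0.346 to 1.3 on HFD and from 0.181 to 1.44 on ND, so there it varied as widely within each diet.

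Rac1, a small GTPase of phagocytosis and cell movement, had 77.8, 63.6, 113.1 and 329 CPM on HFD, 370, 86, 442 and 393 CPM in the STZ group and 401, 392, 515 and 100.2 CPM on ND. The low libraries were the same as for C1qc, with ND 3_18 added. Lamp1, a lysosomal membrane protein, had 255, 152, 188 and 822 CPM on HFD, against 904, 969, 979 and 283 CPM on ND. Spi1, which encodes the macrophage factor PU.1, had 158, 138, 100.4 and 421 CPM on HFD, against 404, 370, 530 and 378 CPM on ND. None of these 4 genes separated the diets in all libraries. The fitted log2 differences were -1.23 (SE 0.47) for C1qc, -1.45 (SE 0.61) for Rac1, -1.22 (SE 0.60) for Lamp1 and -1.06 (SE 0.38) for Spi1, each with an adjusted p of 1 by edgeR. Without the cohort 6 controls they were -0.97 for C1qc, -1.04 for Rac1, -0.79 for Lamp1 and -1.11 for Spi1. With no filter on low counts, edgeR called all 4 genes, with adjusted p from 3.83e-14 for C1qc to 0.000105 for Spi1. In the filtered fit without HFD 3_16, C1qc alone of all genes was called (log2 -2.03, adjusted p 0.0295). How far this split shapes the genes that were lower on HFD was not tested. STZ 2_9 was the lowest STZ library in 48.8% of the 215 genes that were lower at an unadjusted p below 0.05. It was so in 19.6% of the 148 that were higher and 31.4% of all genes. STZ 2_9 was also the only library of cohort 7 and had the fewest genes with a count in its group, 12682. The split, the cohort and the quality of this library cannot be told apart.

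**Figure D2:**
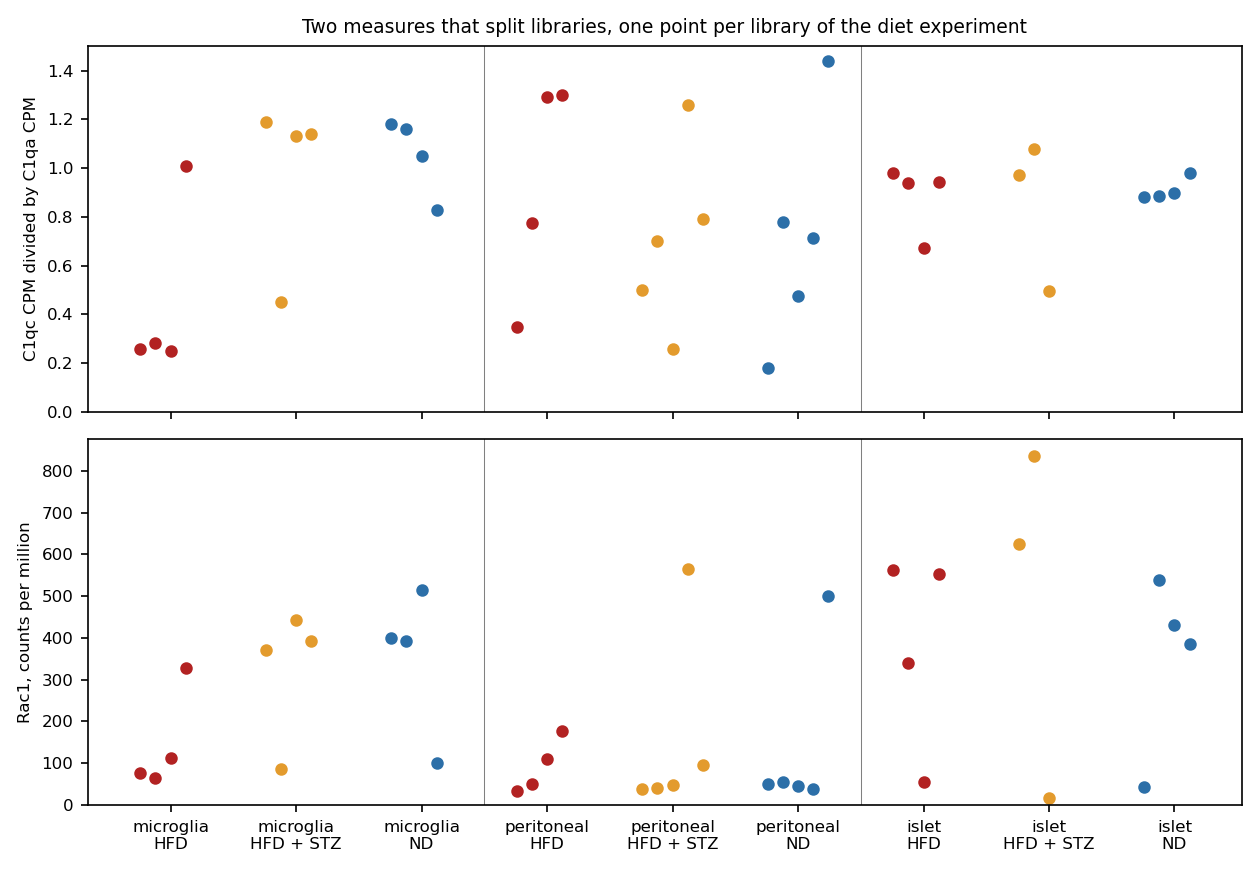
The C1qc to C1qa ratio (upper panel, CPM divided by CPM) and Rac1 in CPM (lower panel) in each library of the diet experiment, by population and diet. Each point is 1 library. Of the microglia, 3 HFD libraries (0.248 to 0.281) and 1 STZ library (0.452) lie below the others in the ratio; peritoneal libraries spread over both levels on every diet.

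No gene passed the test across all genes. edgeR's quasi-likelihood test with cohort as a block called 0 of 13025 tested genes (0%) at an adjusted p below 0.05, and the smallest adjusted p was 0.968. At an unadjusted p below 0.05 there were 363 genes, 148 higher on HFD (1.14% of those tested) and 215 lower (1.65%). DESeq2 called 16 genes, limma-voom with quality weights 4 and edgeR without a filter on low counts 28. Without the cohort 6 controls edgeR called 0 genes, with 669 at an unadjusted p below 0.05. In 161 genes (1.24%) all 4 HFD libraries lay above all 4 ND libraries, and in 189 (1.45%) all lay below. The median log2 difference over all tested genes was 0.04. The values that follow therefore describe the genes of smallest p and the listed pathways. None of them is a called difference unless another tool or setting is named.

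The gene of smallest p was Hspa1a, the stress-inducible HSP70 chaperone that refolds damaged protein (chromosome 17, 34969190 to 34972156, minus strand). It had 3004, 2163, 1582 and 1645 CPM on HFD, 2193, 2697, 2064 and 3258 CPM in the STZ group and 1229, 1272, 1036 and 835 CPM on ND. Every HFD and STZ library was above every ND library. The means were 2098 ± 657 CPM on HFD and 1093 ± 201 CPM on ND (SD, n = 4 each), and the fitted log2 difference was 0.95 (SE 0.14, unadjusted p 7.43e-05, adjusted p 0.968 by edgeR). DESeq2 and limma-voom with quality weights both called it, with adjusted p of 4.32e-07 and 0.0281. So did edgeR without the filter on low counts (adjusted p 9.55e-07). Within cohort 6 the log2 difference was 1.08, and within cohort 8 it was 0.80. Without the 2 libraries of lowest weight it was 0.90, and without the cohort 6 controls it was 1.21. Exons of Gm20481 overlap Hspa1a on the other strand, and its near-identical neighbour Hspa1b shares sequence with it, so reads can be divided between them. Hspa1b had 138, 38.8, 60 and 37.3 CPM on HFD, against 41.5, 84, 21.4 and 36.1 CPM on ND, with overlap. Its log2 difference was 0.66 (SE 0.42), and -0.11 without the 2 libraries of lowest weight.

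Most listed chaperones were higher on HFD. All 21 listed heat shock genes were tested, and their median log2 difference was 0.39, beside 0.04 for all genes. Of the 21, 17 were higher and 4 lower; 9 were higher at an unadjusted p below 0.05 and 0 were lower. The summed level of the list was 17586, 14076, 12068 and 12386 CPM on HFD, 14736, 17783, 13107 and 17874 CPM in the STZ group and 10746, 11542, 9780 and 9183 CPM on ND. All HFD libraries thus lay above all ND libraries in the sum. The list median was 0.51 within cohort 6 and 0.30 within cohort 8, and stayed between 0.27 and 0.51 in the 20 other settings tried, where 16 to 18 of the 21 genes were higher.

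Hsf1, the factor that switches on these genes, binds inverted repeats of the letters GAA, and the promoters of 3 members show such letters. Windows of 150 bases that end at the gene's start are printed 5′ to 3′ on the gene's strand from RefSeq on GRCm38.p6 (the mm10 assembly). Capitals mark each match of GAANNTTC or TTCNNGAA, which are searched on both strands at once because each is its own reverse complement. Hspa1a is at chr17:34972157-34972306 (minus), Hsph1 at chr5:149636337-149636486 (minus) and Hspb1 at chr5:135887769-135887918 (plus).
Hspa1a: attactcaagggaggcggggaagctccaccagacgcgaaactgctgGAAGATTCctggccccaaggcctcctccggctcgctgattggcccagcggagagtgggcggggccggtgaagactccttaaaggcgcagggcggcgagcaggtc
Hsph1: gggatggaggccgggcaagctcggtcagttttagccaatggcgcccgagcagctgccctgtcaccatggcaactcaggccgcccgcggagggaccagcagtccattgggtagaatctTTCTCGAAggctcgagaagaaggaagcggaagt
Hspb1: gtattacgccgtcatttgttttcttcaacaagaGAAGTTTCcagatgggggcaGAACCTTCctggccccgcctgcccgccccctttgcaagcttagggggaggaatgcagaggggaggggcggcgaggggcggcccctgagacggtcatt

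Within the 250 bases before the start, 9 of the 17 heat shock genes in the promoter table held a match (52.9%), against 3932 of 27025 genes (14.5%). Of the 6 that were higher at an unadjusted p below 0.05 and in the table, 4 held one. Bag3 and Dnajb1 had no match of these letters in the window. The windows of Hspd1 and Hspe1 overlap and hold the same matches on opposite strands, and those of Hspa1a and Hspa1b are near-identical. The 9 genes with a match are thus not all independent. A match describes letters only.

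Constitutive and inducible chaperones were both among these. Hspa8, the constitutive HSP70 (chromosome 9, 40800984 to 40810087), had 5148, 4200, 3816 and 3978 CPM on HFD, against 3299, 3445, 3016 and 3087 CPM on ND. No HFD library overlapped the controls, and the log2 difference was 0.44 (SE 0.10, adjusted p 1 by edgeR and 0.0226 by DESeq2). Small nucleolar RNA genes overlap it on the same strand. Hsp90ab1, the constitutive HSP90 (chromosome 17, 45567775 to 45573271), had 2559, 1933, 1702 and 1756 CPM on HFD, against 1456, 1639, 1635 and 1375 CPM on ND. It too did not overlap (log2 0.40, SE 0.14). Its inducible relative Hsp90aa1 had 1748, 1267, 1024 and 995 CPM on HFD, against 1041, 1309, 786 and 805 CPM on ND, and these ranges overlapped.

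Partners of HSP70 were higher as well, with overlap between the diets. Dnajb1, an HSP40 that delivers clients to HSP70, had 2785, 2072, 1717 and 1764 CPM on HFD, against 1730, 1736, 1445 and 1414 CPM on ND. Only HFD 3_14 reached down into the control range (log2 0.42, SE 0.12). Hsph1, a nucleotide exchange factor of HSP70, had 223, 215, 144 and 205 CPM on HFD, against 136, 141, 145 and 87 CPM on ND. HFD 3_14 again lay among the controls (log2 0.65, SE 0.20). The small heat shock protein gene Hspb1 had 139, 88.4, 59.1 and 90.1 CPM on HFD, against 44.1, 73.5, 64.3 and 41.7 CPM on ND (log2 0.75, SE 0.29). Bag3, a co-chaperone of selective autophagy, averaged 161 ± 45 CPM on HFD and 114.8 ± 47.9 CPM on ND (SD, n = 4 each), and HFD 1_2 was highest at 228 CPM.

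Some other members were lower or did not separate the diets. Hspa4, an HSP110 relative, was the reverse: 93.1, 116.1, 90.4 and 111.1 CPM on HFD, against 124, 131, 128 and 135 CPM on ND, with all HFD libraries below all controls (log2 -0.31, SE 0.16). Hsf1 itself had 121, 70.5, 42.5 and 66.4 CPM on HFD, against 69.9, 64.4, 130 and 64.1 CPM on ND (log2 -0.13, SE 0.38). The mitochondrial chaperonin gene Hspd1 had 74.1 to 109.5 CPM on HFD and 11.4 to 100.2 CPM on ND, where ND 3_17 alone gave the 11.4 CPM. The log2 difference of Hspd1 was 0.65 (SE 0.50), and 0.38 without the 2 libraries of lowest weight. Stip1, which bridges HSP70 and HSP90, had 70.4 to 87.3 CPM on HFD and 74.7 to 114.9 CPM on ND. Beside 1.14% of all genes, 9 of the 21 members were higher at an unadjusted p below 0.05, and the other 12 were not past it in either direction.

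**Figure D3:**
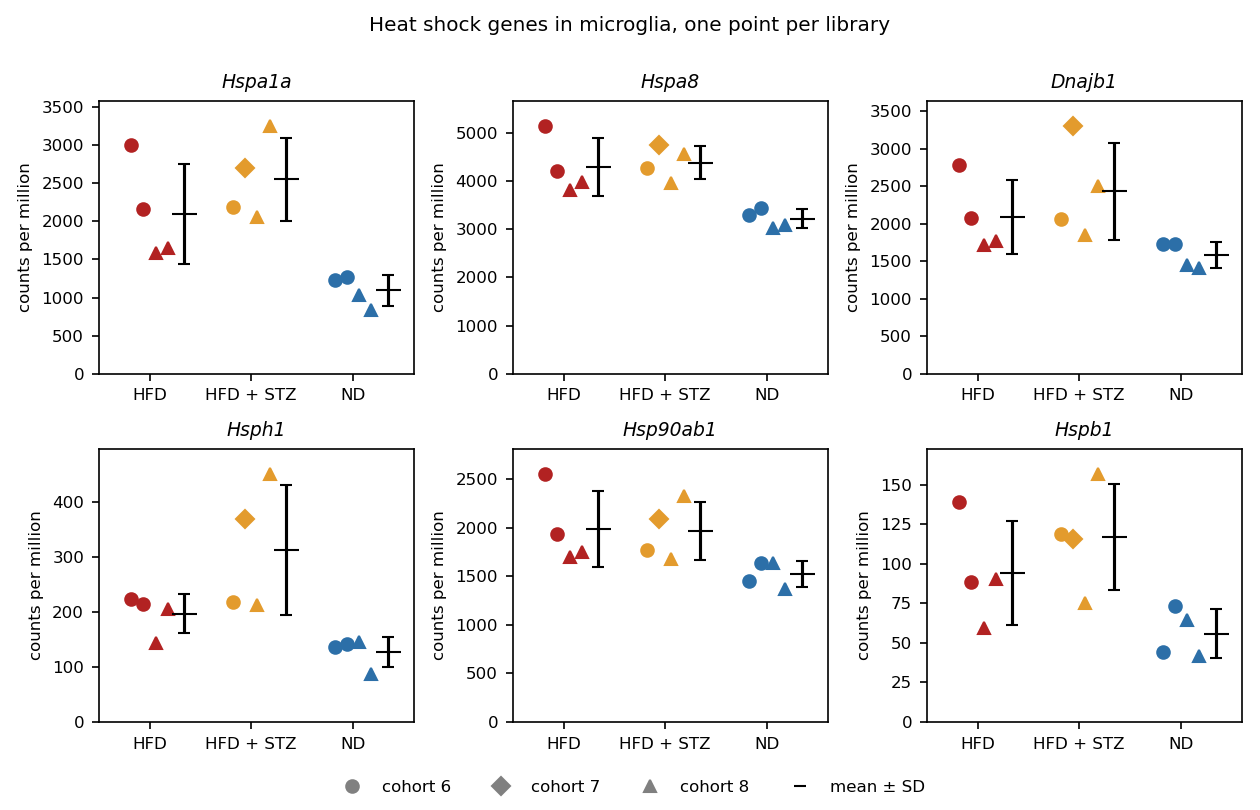
Levels of 6 heat shock genes in CPM (linear axis from 0), with 1 point per microglia library and the mean ± SD at the right of each group. Colour gives the group and shape the cohort. For Hspa1a, Hspa8 and Hsp90ab1 all 4 HFD points lie above all 4 ND points; the STZ points of Hspa1a (2064 to 3258 CPM) lie above the ND points too.

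Cohorts agreed in sign for most of these genes. Of the 21 heat shock genes, 14 were higher in both cohorts, 2 were lower in both and 5 had opposite signs (76.2% of the same sign), while 49.5% of 12533 genes measured in both had the same sign. The named genes were chosen on both cohorts together, so their 78.8% of equal sign over 151 genes is a description. Fitting diet by cohort, edgeR called 0 of 13025 interactions (0%), with 451 at an unadjusted p below 0.05, and DESeq2 called 47. Leaving out ND 3_18 gave 326 calls, 318 of them with a more positive diet difference in cohort 8, but that fit leaves ND 3_17, the library of lowest weight, as the only control of cohort 8 and assumes that it varies like the other groups. The gene of smallest p was Plxnb3, a plexin receptor for semaphorins, with 20.4, 23, 19.4 and 23.9 CPM on HFD, against 29, 27.5, 0.0496 and 0.243 CPM on ND. Its 2 low values were the cohort 8 controls (interaction log2 7.51, SE 0.98, adjusted p 0.795 by edgeR).

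**Figure D4:**
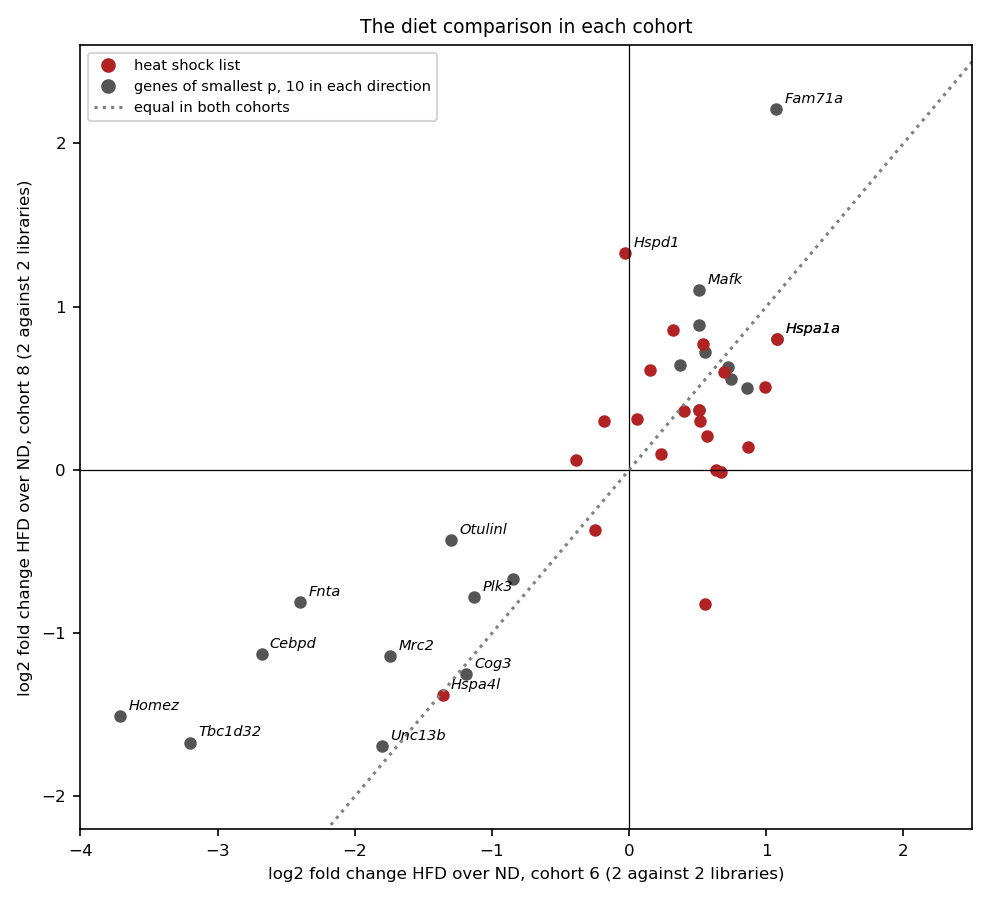
Log2 difference of HFD over ND within cohort 6 (horizontal) and within cohort 8 (vertical), each from 2 against 2 libraries. Red points are the 21 heat shock genes and grey points the 10 genes of smallest p in each direction; the dotted line marks equal values. Hspa1a lies at 1.08 and 0.80, and 14 of the 21 red points lie above 0 on both axes.

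Hspa1a and Hspa8 were 2 of the 10 genes of smallest p that were higher on HFD and had a mean of at least 5 CPM. Fam71a, a gene best known from testis, had 27.4, 38.3, 45.5 and 43.4 CPM on HFD, 18.2, 22.1, 24.4 and 27.5 CPM in the STZ group and 15.5, 16.5, 11.8 and 7.52 CPM on ND. HFD and ND did not overlap, and STZ 3_15 reached the lowest HFD library (log2 1.64, SE 0.35; DESeq2 adjusted p 0.0288). Tagap, a GTPase-activating protein of immune cells (chromosome 17, 7926000 to 7934897), had 445, 519, 535 and 484 CPM on HFD, against 358, 405, 315 and 347 CPM on ND (log2 0.51, SE 0.12; DESeq2 adjusted p 0.0313). Mafk, a small Maf protein that pairs with NRF2, had 127, 185, 163 and 137 CPM on HFD, against 107.3, 117.1, 55.8 and 85.5 CPM on ND. C9orf72, a regulator of autophagy and lysosomes tied to motor neuron disease in people, had 80.2 to 99.9 CPM on HFD and 40.8 to 72.2 CPM on ND. The zinc finger genes Zfp638 (log2 0.69) and Zfp592 (log2 0.66), the Golgi SNARE gene Gosr2 (log2 0.64) and the ER transporter gene Atp13a1 (log2 0.68) completed the set. Only Atp13a1 overlapped between diets.

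The 10 genes of smallest p on the lower side began with Cebpd. Cebpd, a C/EBP transcription factor of acute responses (chromosome 16, 15887286 to 15891031), had 10.6, 13.9, 17.5 and 24.5 CPM on HFD, 142, 18.2, 93.3 and 84.6 CPM in the STZ group and 59, 102.2, 62.1 and 30.5 CPM on ND. All HFD libraries were below all controls, and STZ 2_9, low for C1qc, was low here too (log2 -1.90, SE 0.43, adjusted p 1 by edgeR and 0.0181 by DESeq2). Exons of Spidr overlap it on the other strand. Fnta, the alpha subunit of farnesyltransferase, had 17.5, 12.6, 22.1 and 31 CPM on HFD, 95, 8, 64 and 94.4 CPM in the STZ group and 64.4, 98.7, 56.5 and 37.7 CPM on ND. Otulinl (301 to 671 CPM on HFD, 656 to 922 CPM on ND) and the stress kinase gene Plk3 (83.8 to 111.8 CPM on HFD, at most 242 CPM on ND with ND 3_18 inside the HFD range) overlapped between the diets, and HFD 3_16 was the highest HFD library in both.

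The other 6 did not overlap. Homez, a homeobox gene, had 1.98, 1.1, 13.1 and 7.51 CPM on HFD, against 22.9, 18.6, 31.4 and 27.4 CPM on ND (log2 -2.59, SE 0.60; DESeq2 adjusted p 0.0119). Unc13b, a regulator of vesicle release, had 4.24 to 18.2 CPM on HFD and 30.1 to 62.3 CPM on ND. Mrc2, a collagen receptor of the mannose receptor family, had 12.5 to 22.7 CPM on HFD and 33.1 to 69.3 CPM on ND. Rheb, the GTPase that activates mTORC1, had 39.2, 50, 68.1 and 65.5 CPM on HFD, against 72.6, 92, 123 and 90.6 CPM on ND (log2 -0.75, SE 0.20). The Golgi tethering gene Cog3 (log2 -1.22, SE 0.33) and the cilium gene Tbc1d32 (0.991 to 5.98 CPM on HFD, 9.52 to 17.4 CPM on ND) were the remaining ones.

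Hormone and stress responses gave a similar but smaller pattern. Of 26 listed glucocorticoid targets, 18 were tested; 14 were higher and 4 lower, with a median of 0.24, and 4 were higher and 1 (Cebpd) lower at an unadjusted p below 0.05. The summed level was 18847 to 19795 CPM on HFD, 17405 to 19493 CPM in the STZ group and 15817 to 17470 CPM on ND, without overlap between HFD and ND. More than any other gene, Dusp1 made up this sum. This phosphatase of MAP kinases, which is also an immediate early gene, had 12005, 11127, 10502 and 11153 CPM on HFD, against 9803, 9217, 9357 and 10377 CPM on ND (log2 0.24, SE 0.08). Per1, a clock gene with a glucocorticoid response, had 593, 391, 435 and 522 CPM on HFD, against 295, 412, 323 and 339 CPM on ND. HFD 1_3 lay below ND 1_6, so the ranges overlapped (log2 0.54, SE 0.17). Fkbp5, a classical glucocorticoid target, did not separate the diets, with 52.7 to 169 CPM on HFD and 57.5 to 126 CPM on ND.

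Clock genes were mixed. The list had a median of 0.31 over 19 tested members, of which 14 were higher, but only Per1 had an unadjusted p below 0.05. Nr1d1, the repressor REV-ERB alpha, had 9.74 to 44.4 CPM on HFD and 0.397 to 34.7 CPM on ND, and Dbp had 2.55 to 6.13 CPM on HFD and 0.582 to 15.2 CPM on ND. The log2 difference of Nr1d1 was 0.48, and 1.77 without the cohort 6 controls. Time of day at collection is not given in the labels used here.

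Immediate early genes were very high on both diets. Fos had 18725, 18486, 16225 and 17443 CPM on HFD, 18580, 16121, 16978 and 15880 CPM in the STZ group and 15571, 16141, 14494 and 15957 CPM on ND. HFD lay above ND in every library, but by a small margin (log2 0.22, SE 0.07). Jun had 8547 to 10230 CPM on HFD and 7398 to 9281 CPM on ND. Rhob was the reverse, with 402 to 621 CPM on HFD and 607 to 1159 CPM on ND (log2 -0.46, SE 0.19). Over the 28 tested members the median was 0.09, and the summed level overlapped (74664 to 81864 CPM on HFD, 66414 to 75860 CPM on ND). The part of sorting and dissociation in these levels was not tested. Of the unfolded protein response, whose median was 0.04, Hspa5, the ER chaperone BiP, was 3018 to 4353 CPM on HFD and 2715 to 3674 CPM on ND (log2 0.33, SE 0.12).

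Genes of disease-associated microglia, a state described around plaques and in demyelination, were not higher on HFD. Of 26 tested members 10 were higher and 16 lower, with a median of -0.08, and 3 were lower at an unadjusted p below 0.05. Axl, a receptor for dying cells, had 5.45, 10.8, 6.11 and 15.4 CPM on HFD, 36.2, 1.7, 17.7 and 27.2 CPM in the STZ group and 22.3, 26.2, 26.2 and 24 CPM on ND. HFD did not reach the controls (log2 -1.37, SE 0.43, adjusted p 1 by edgeR). Clec7a, the beta-glucan receptor Dectin-1, had 14.3, 28.1, 21 and 37.3 CPM on HFD, against 36.9, 45.4, 61.5 and 52.2 CPM on ND, overlapping only through HFD 3_16. Itgax, the integrin CD11c, had 0.339 to 6.96 CPM on HFD and 5.37 to 33.6 CPM on ND. Apoe had 228 to 738 CPM on HFD and 429 to 841 CPM on ND, Lpl had 6.31 to 40.9 CPM on HFD and 14.8 to 53.4 CPM on ND, and Trem2, their upstream receptor, had 1065 to 2153 CPM on HFD and 1202 to 1518 CPM on ND. Within cohort 6 the list median was 0.03 and within cohort 8 it was -0.17.

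Phagocytosis genes had a median of -0.02 with 4 of 27 lower at an unadjusted p below 0.05. Fcgr2b, the inhibitory Fc receptor (chromosome 1, 170958617 to 170976547, minus strand), had 394, 402, 331 and 351 CPM on HFD, against 478, 465, 620 and 478 CPM on ND. Its groups did not overlap (log2 -0.44, SE 0.14, adjusted p 1 by edgeR). The others were Axl, Rac1 and Cd300lf, an inhibitory receptor of myeloid cells that averaged 1.32 CPM on HFD and 9.19 CPM on ND. Of the autophagy genes, Atg3, which lipidates LC3, had 40.9, 70.5, 66.2 and 91.7 CPM on HFD, against 125, 109.2, 105.4 and 124 CPM on ND (log2 -0.78, SE 0.23), while the list median was 0.12.

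Interferon and antigen presentation genes were slightly lower in sum. The interferon-stimulated list summed to 1110, 1129, 1112 and 1076 CPM on HFD, 1183, 1154, 1381 and 1212 CPM in the STZ group and 1251, 1270, 1226 and 1149 CPM on ND. HFD lay below every ND and STZ library. Its 37 tested members were 16 higher and 21 lower, with a median of -0.12, and the 3 at an unadjusted p below 0.05 were lower: Ddx58, the RNA sensor RIG-I (28.1 to 45.6 CPM on HFD, 43.9 to 69.8 CPM on ND), Rtp4 (13.3 to 18.3 CPM on HFD, 17.2 to 46.3 CPM on ND) and Dhx58 (10.3 to 15.8 CPM on HFD, 14 to 38.1 CPM on ND). All of these overlapped. Without the cohort 6 controls the list median was 0.09 in place of -0.12.

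The list of MHC and antigen presentation summed to 6702, 6968, 6557 and 6760 CPM on HFD, 7253, 7641, 7105 and 7137 CPM in the STZ group and 7118, 7613, 7701 and 7128 CPM on ND. HFD was again below every other library. The 22 tested members of the list were 9 higher and 13 lower, with a median of -0.05. Its class II members were low and varied between libraries: Cd74, the invariant chain, had 122, 104.6, 27.9 and 58.7 CPM on HFD, against 95.3, 242, 88.5 and 110.6 CPM on ND, and H2-Eb1 had 1.19 to 44.5 CPM on HFD and 18.5 to 106.6 CPM on ND. Without the cohort 6 controls the log2 difference was -0.29 in place of -0.85 for Cd74 and -0.79 in place of -1.98 for H2-Eb1. In islet macrophages Cd74 stood at 34394 to 41684 CPM on HFD and 38345 to 41308 CPM on ND. Among the 28 response lists, 2 summed levels lay above in all 4 HFD libraries (7.14%), those of heat shock genes and glucocorticoid targets, and 2 lay below (7.14%), those of interferon-stimulated and MHC genes.

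Inflammatory genes driven by NF-kB did not separate the diets. Their median was 0.01 over 35 members, of which 1 was lower at an unadjusted p below 0.05. This was Tnf, with 141, 99.7, 134 and 122 CPM on HFD, against 168, 282, 134 and 172 CPM on ND (log2 -0.55, SE 0.23), where ND 3_17 matched the HFD level. Without the cohort 6 controls it was -0.26. Il1b had 0 to 9.85 CPM on HFD and 9.14 to 11.1 CPM on ND, with HFD 1_2 at 0. Ccl3 had 1094 to 1536 CPM on HFD and 1353 to 1602 CPM on ND, Ccl4 had 827 to 1131 CPM on HFD and 893 to 1154 CPM on ND, and Nlrp3, a sensor of the inflammasome, had 200 to 336 CPM on HFD and 231 to 333 CPM on ND.

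Genes that handle fat showed few differences. Fatty acid oxidation and PPAR targets had a median of 0.16, with 19 of 28 higher and 1 at an unadjusted p below 0.05. Acadm, the medium-chain acyl-CoA dehydrogenase, had 106.5, 103.3, 88.7 and 97.5 CPM on HFD, against 71.5, 68.5, 67.1 and 86.1 CPM on ND, without overlap (log2 0.46, SE 0.18, adjusted p 1 by edgeR). Hadh, a later enzyme of the same pathway, was the reverse, with 19 to 23.3 CPM on HFD and 25.8 to 39.1 CPM on ND. Cpt1a, the entry step of fatty acids into mitochondria, had 7.83 to 56.5 CPM on HFD and 22.5 to 42.3 CPM on ND. Plin2, a coat protein of lipid droplets, had 55.8, 60.1, 51.6 and 64.4 CPM on HFD, against 51.5, 53.4, 29.8 and 49.5 CPM on ND. Plin4, another droplet protein, was rare, with 0.526, 6.14, 5.21 and 10.9 CPM on HFD and 0, 0.422, 0 and 0 CPM on ND.

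Cholesterol synthesis genes had a median of 0.24, but 0 of 30 members had an unadjusted p below 0.05. The PPAR targets Cd36, Pdk4 and Angptl4 and the growth factor gene Igf1 were too low to be tested. Cd36 reached 9.07 CPM on HFD and 5.58 CPM on ND, and Igf1 reached 4.7 CPM on HFD and 10.4 CPM on ND. Pdk4 had 0 CPM in all 8 libraries, and Angptl4 had 0 CPM on HFD and at most 0.211 CPM on ND. Glycolysis, mitochondrial and ribosomal lists had medians of 0.05 (glycolysis), -0.01 (nuclear oxidative phosphorylation), -0.06 (mitochondrial DNA) and 0.09 (cytosolic ribosomal proteins), each with 0 members at an unadjusted p below 0.05. The insulin receptor gene Insr had 52 to 75 CPM on HFD and 46.3 to 90.7 CPM on ND.

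Homeostatic microglial genes were level. Of 30 members, 15 were higher and 15 lower, with a median of 0.01 and log2 differences between -0.25 and 0.33. Golm1, a Golgi membrane protein, was the single one without overlap, at 1234 to 1318 CPM on HFD and 1096 to 1216 CPM on ND (log2 0.20, SE 0.09). Tmem119 had 4324 to 6232 CPM on HFD and 4718 to 5038 CPM on ND. Csf1r, the receptor on which microglia depend to survive, had 9225 to 10268 CPM on HFD and 9274 to 10723 CPM on ND.

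**Figure D5:**
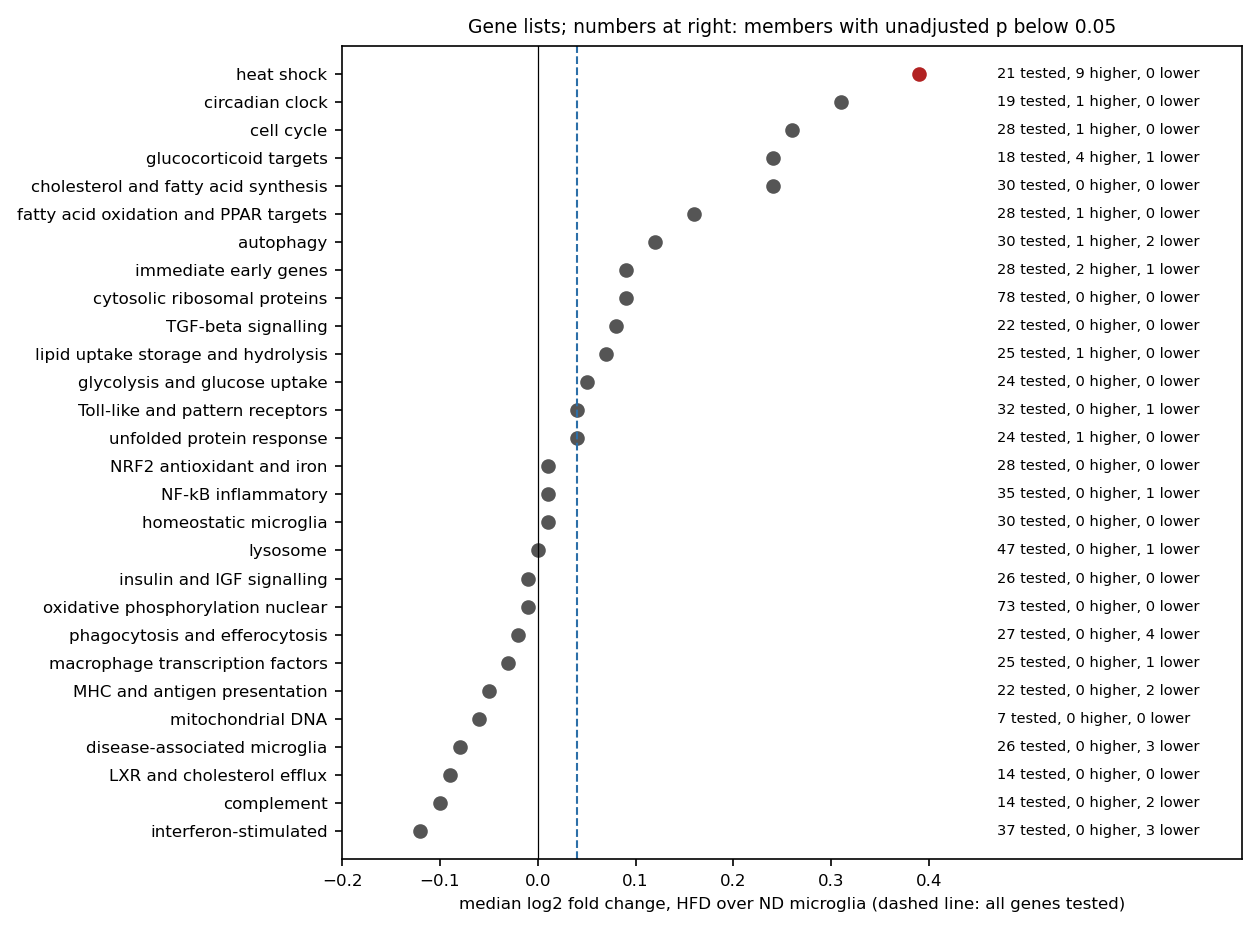
Median log2 difference of HFD over ND in microglia for each of the 28 response lists, with the dashed line at the median of all tested genes (0.04). The numbers at right give tested members and those with an unadjusted p below 0.05 in each direction. Heat shock genes (red) have the highest median, 0.39, and interferon-stimulated genes the lowest, -0.12.

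Among the 8 compared libraries, Xdh and Steap3, both of low level, had counts in 1 diet group only. The STZ mice also ate HFD, and their libraries did not all share either pattern. Xdh, xanthine dehydrogenase of purine breakdown (chromosome 17, 73883895 to 73950196, minus strand), had 90 to 424 counts in HFD libraries, 1, 0, 6 and 20 counts in the STZ group and 0 counts in all 4 ND libraries. A count of 0 allows up to 3 counts per library, 0.146 to 0.162 CPM, so the HFD mean of 8.2 CPM was at least 53.3-fold higher. Xdh was the 1 gene at 0 counts in every ND library and at 1 CPM or more in every HFD library, and 0 genes had the reverse pattern. DESeq2 called it (adjusted p 3.72e-07). The main edgeR fit did not, but edgeR without the filter on low counts did (adjusted p 0.000492). Peritoneal macrophages had 472 to 608 CPM of Xdh on HFD and 66.8 to 508 CPM on ND. Steap3, an iron reductase, had 0 counts in all HFD libraries, 0, 0, 0 and 91 counts in the STZ group and 42, 16, 264 and 80 counts on ND. Its HFD level was at least 42.1-fold lower by the same limit, and at least 19.6-fold lower without ND 3_17, its highest library. In a bulk sample, more cells of a type and more RNA per cell cannot be told apart.

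Markers of several other cell types stood out in single libraries or on 1 diet. Neutrophil genes were higher in the HFD libraries of cohort 6: S100a8, a calcium-binding alarmin, had 373, 660, 41.8 and 24.2 CPM on HFD, against 51.7, 75.9, 102.2 and 0.0485 CPM on ND. The summed neutrophil list was 1930, 2559, 786 and 701 CPM on HFD and 629 to 992 CPM on ND, and limma-voom called S100a8, S100a9 and Ngp. Csf3r alone gave 524 to 822 CPM of this sum on HFD and 621 to 677 CPM on ND. Within cohort 6 the list median was 3.20, with 9 of 9 tested members higher. Within cohort 8 it was -0.72, with 1 of 6 higher. Ltf, lactoferrin of neutrophil granules, had 63.5, 251, 40.5 and 28.9 CPM on HFD, against 16.3, 7.8, 12.8 and 0 CPM on ND, so all HFD libraries lay above all ND libraries (log2 3.09, and 3.94 without the cohort 6 controls). Choroid plexus genes were high in ND 1_6: Ttr, transthyretin, had 35.5 to 122 CPM on HFD, 986, 97.4, 92.2 and 106.7 CPM in the STZ group and 158, 714, 96.4 and 77.1 CPM on ND. Its log2 difference was -1.23, and -0.06 without the cohort 6 controls. Neuronal genes also peaked in ND 1_6, where their sum was 202 CPM, and erythrocyte genes in HFD 1_3, also with a sum of 202 CPM. The T and NK cell gene Nkg7, the B cell gene Ms4a1, the endothelial gene Cldn5, the pericyte genes Rgs5 and Kcnj8 and the fibroblast gene Col1a1 had 0 counts in all 8 libraries. Other members of these lists did have counts. Ighm of the B cell list had 467 to 574 CPM on HFD and 430 to 574 CPM on ND. Pecam1 of the endothelial list had 20 to 43 CPM on HFD and 11.8 to 42.9 CPM on ND. The summed T and NK cell list was 2.94 to 14.4 CPM on HFD and 0.422 to 3.08 CPM on ND. The border macrophage gene Mrc1 had 7.87 to 30.5 CPM on HFD and 5.35 to 49.6 CPM on ND. The part of these cells in the differences between diets was not tested.

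The diet difference was also compared with that in the other populations of the experiment. Peritoneal libraries (4 HFD, 5 ND) came from 100000 cells and islet libraries (4 HFD, 4 ND) from 400 cells, in cohorts other than those of the microglia, so population, cohort and cell number cannot be told apart. The heat shock median was 0.39 in microglia, 0.13 in peritoneal and 0.37 in islet macrophages, where the median of all genes was 0.04 in microglia, 0.00 in peritoneal and 0.13 in islet macrophages. Hspa1a itself had 3.12 to 47 CPM on HFD and 4.01 to 70.4 CPM on ND in peritoneal cells, and 85.4 to 1146 CPM on HFD and 62.4 to 341 CPM on ND in islet cells. Its diet difference in microglia exceeded that in peritoneal cells by 1.30 log2 units (SE 0.28, adjusted p 0.397 by edgeR) and that in islet cells by 0.65 (SE 0.47, adjusted p 0.867), so neither difference passed.

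Against peritoneal macrophages edgeR called 5 of 15029 differences (0.0333%), DESeq2 59 and limma-voom 0. They were Xdh, Steap3, Emilin1, Serpinb1a and Ackr3. All were expressed by peritoneal macrophages on both diets and near or at 0 in microglia on at least 1 diet. Serpinb1a and Ackr3 were too low to be tested in microglia alone. Emilin1, an elastic fibre protein, had 2.29 to 10.2 CPM on HFD and 0 to 0.162 CPM on ND in microglia, and 271 to 324 CPM on HFD and 85.6 to 368 CPM on ND in peritoneal cells. Ackr3, a scavenging chemokine receptor, had 0 CPM on HFD and 2.43, 1.42, 0 and 0 CPM on ND in microglia. Only the cohort 6 controls, which matched STZ libraries, thus held counts of it. In peritoneal cells Ackr3 had 42.6 to 58.5 CPM on HFD and 59.2 to 103.8 CPM on ND. Serpinb1a, an inhibitor of neutrophil proteases, had 7.06, 5.55, 1.3 and 0.087 CPM in microglia on HFD and reached 0.0527 CPM on ND. It was highest in the HFD libraries of cohort 6, as were the summed neutrophil genes. Leaving out ND 1_5 left 0 calls, and leaving out ND 3_17 gave 14.

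Against islet macrophages edgeR called 11 of 14421 differences (0.0763%), DESeq2 337 and limma-voom 0. The median difference over all genes was -0.18 here. In all 11 the microglial ranges of the diets overlapped. In 10 of them the difference was negative, with at most 9.83 CPM on HFD and 0.0637 CPM on ND in islet cells. Serpine2, a protease inhibitor of the nervous system, had 587 to 760 CPM on HFD and 614 to 682 CPM on ND in microglia, and 0 to 8.21 CPM on HFD and 0 CPM on ND in islet cells. Adgrg1, the adhesion receptor GPR56, had 634 to 848 CPM on HFD and 686 to 810 CPM on ND in microglia, and 0 to 4.27 CPM on HFD and 0 CPM on ND in islet cells. The others with a negative difference were Cfap74, Lpar5, Trim2, Sgce, Whrn, Ecscr, Kcnd1 and Npl. Nectin2, an adhesion molecule, had the 1 positive difference, with 28.5 to 53.6 CPM on HFD and 9.03 to 38.3 CPM on ND in microglia, and 0 CPM on HFD and 0 to 7.98 CPM on ND in islet cells. These calls thus rest on islet levels below 10 CPM in libraries of 400 cells. Leaving out any 1 microglia library gave 3 to 6 calls.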

How the data were processed

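RNA of sorted macrophages had been turned into Smart-seq2 libraries, which carry no molecular identifiers. Per the submitters' processing notes, Trimmomatic 0.36, STAR 2.5.1a, featureCounts and the mm10 build were used; the annotation release, strand setting and treatment of multimapping reads are not stated there. The authors deposited raw counts per gene. IDs were named from GENCODE M21 after removal of version numbers (50462 of 50686 matched; 0.00744% of counts had no symbol). CPM here are counts divided by the library's gene counts in M.

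Genes were filtered with filterByExpr and scaled by TMM, and diet was tested with cohort as a block by the quasi-likelihood test of edgeR 4.0.16 in R 4.3.3, two-sided, with Benjamini-Hochberg adjustment over all tested genes and a threshold of 0.05. The diet by cohort term and the differences from peritoneal and islet macrophages were fitted the same way. limma 3.58.1 (voom with quality weights) and DESeq2 1.42.0, other scalings and filters, and leaving out each library were alternatives; the fits were tested on simulated data. Since no gene was called, named genes were the 10 of smallest p in each direction with a mean of at least 5 CPM and a symbol (no Gm or Rik models or pseudogenes), the 3 of smallest p in each list, up to 6 of each other comparison with called genes first, and a set given whatever its value. Other genes named were chosen after their values were seen. Members and lists were chosen with earlier results of these data known. The limit for a count of 0 is 3 counts per library and covers counting error only. No unused sample columns remained. Some listed genes are not reported here. Figures were drawn with matplotlib 3.10.9.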

Additional observations from a re-analysis of the deposited data

Results flagged for a closer look

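In 17 of 222 groups of 4 libraries, 1 library lay far from the other 3; chance alone gives about 1 in 20 such groups. ND 3_17 was the most frequent, high for Unc13b (62.3 CPM), Itgax (33.6 CPM) and Hsf1 (130 CPM) and apart for Gosr2 (64.7 CPM), Plin2 (29.8 CPM) and Ahsa1 (93.1 CPM). HFD 3_16 stood apart for Plk3 (111.8 CPM), Igf1r (31.7 CPM) and the summed oligodendrocyte precursor genes (7.14 CPM). HFD 1_2 stood apart for Bag3 (228 CPM), and HFD 1_3 for the summed erythrocyte genes (202 CPM). ND 1_6 stood apart for the summed genes of neurons (202 CPM), erythrocytes (107.4 CPM) and oligodendrocyte precursors (3.58 CPM). ND 3_18 stood apart for Hsph1 (87 CPM) and the summed genes of pericytes and smooth muscle (12 CPM) and of NF-kB inflammation (10599 CPM).

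The diet difference in microglia differed from that in peritoneal macrophages, by edgeR's test of the difference itself, for Xdh (9.98), Steap3 (-9.64), Emilin1 (6.61), Serpinb1a (7.35) and Ackr3 (-6.36 on the log2 scale). It differed from that in islet macrophages for Serpine2 (-8.48), Adgrg1 (-7.78), Cfap74 (-8.95), Lpar5 (-8.45), Trim2 (-9.84), Sgce (-7.55), Whrn (-7.20), Ecscr (-6.52), Kcnd1 (-5.98), Nectin2 (10.37) and Npl (-8.51). Most of these fits include groups with counts of 0, where the fitted size depends on the prior count and is no bound. For the HSP40 gene Dnajb4 both HFD libraries lay below both ND libraries in cohort 6 (log2 -0.18) and above them in cohort 8 (log2 0.30). The diet by cohort term was 0.47 (SE 0.30, adjusted p 1 by edgeR) and did not pass.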

How the results depend on the processing

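For the diet difference in microglia, 0 genes were called in the main analysis, 28 without a filter on low counts (6 higher, 22 lower), 16 by DESeq2, 4 by limma-voom with quality weights, and 0 to 1 when each library was left out. For the diet by cohort term, against 0 calls, there were 28 without the filter, 47 by DESeq2 and 0 to 326 on leaving out each library. For the difference from peritoneal macrophages, against 5 calls, there were 22 without the filter, 59 by DESeq2, 0 by limma-voom and 0 to 14 on leaving out each library. For the difference from islet macrophages, against 11 calls, there were 192 without the filter, 337 by DESeq2, 0 by limma-voom, 2 with no replicate block and 3 to 6 on leaving out each library. With no replicate block the diet difference in microglia still had 0 calls, and that from peritoneal macrophages had 5. Of 155 named genes, 44 changed sign in at least 1 of 20 alternatives and 142 kept it in those that left no library or cohort out; 19 were called by some alternative, and 0 of these were called with the opposite sign. Across the 28 list medians and the alternatives, 544 values moved by less than the spread between libraries and 16 by more. The causes were not tested.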
